A study of Mus musculus with 30 samples.

Results

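The difference between the perisynaptic and the extrasynaptic diaphragm of SBMA mice at 15 weeks is described here, from 8 of the 30 libraries of the series: 4 perisynaptic and 4 extrasynaptic libraries, paired within 4 animals. Members were chosen by their labels and library names alone, as the SBMA animals of that age for which both a perisynaptic and an extrasynaptic library carries the name of the same animal. The series measured RNA by bulk sequencing in male mice that model spinal and bulbar muscular atrophy (SBMA), a disease of motor neurons and muscle. SBMA mice carried the transgene BACfxAR121, printed as BACfxR121 in the genotype labels. Control mice were littermates that carried the same transgene together with HSA-Cre, which drives Cre from the human skeletal actin promoter in skeletal muscle, and they are called muscle-rescued by the submitters. All groups therefore inherited the transgene, and no group born without it was compared. Inheriting it does not mean that control muscle, where Cre acts, still expressed it, which was not measured here. The labels record no treatment. Each animal gave a piece of diaphragm with neuromuscular junctions and a piece without them. Beside the 4 SBMA animals of 15 weeks, 3 controls of 15 weeks and 4 SBMA animals of 26 weeks were used for comparison.

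The neuromuscular junction is the synapse between a motor axon and a muscle fibre. Muscle fibres are syncytia, and the few nuclei beneath the synapse transcribe genes for the acetylcholine receptor, acetylcholinesterase and other synaptic proteins that nuclei along the rest of the fibre keep low. Agrin from the nerve binds Lrp4 and activates the kinase MuSK, which acts through Dok7 and the scaffold rapsyn to gather receptors, while ErbB signals and ETS transcription factors such as Etv5 act on synaptic transcription. In denervated or electrically silent muscle, receptor genes are also transcribed away from the synapse. A junction-bearing piece also holds intramuscular nerve with Schwann cells and its sheath, whereas the ends of the fibres meet tendon. In bulk RNA, fewer cells of a type and less RNA per cell cannot be told apart.

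Total counts of the 8 libraries lay between 21897691 and 28464814, within the 16280873 to 34694446 of all 30. The 10 most abundant genes took 17.1 to 21% of the counts, and mitochondrial genes 10.9 to 13.2%. Extrasynaptic replicate 1 stood apart in what follows: among the 4 extrasynaptic libraries it held the most Chrne (4.38 CPM, counts scaled to the library's total), Chrnd (4.73) and Ache (18.5), and the least Chad (0.654), Kera (0.0769) and Tigd4 (2.42). Other genes of these kinds did not follow: Chrna1 was highest in extrasynaptic replicate 3, and the summed tenocyte markers of replicate 1 were at 315 CPM against 251 to 316 CPM in the other 3. Whether this piece was cut nearer to junctions was not tested. The labelled tissue was checked against skeletal muscle genes, and slow and fast contractile genes were abundant in all 8 libraries, with Myh7 at 1090 CPM or more.

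Of 16138 genes tested, 153 differed between the regions (0.948%, Benjamini-Hochberg adjusted p under 0.05 in edgeR's quasi-likelihood test with a term for each animal). The difference was strongly one-sided: 146 genes were higher in perisynaptic pieces (0.905%) and 7 were lower (0.0434%). Every called gene had the same direction in all 4 animals. Of the higher genes, 100 exceeded 2-fold and 20 exceeded 8-fold, with a median log2 difference of 1.49, while the median over all genes tested was -0.01. Only 4 of the 146 had a mean above 100 CPM: Fxyd6 (log2 0.35), which encodes a regulator of the sodium pump, Prkar1a (1.21), Ehd4 (0.37) and Shisa2 (0.40); those other than Prkar1a lie outside the rule for named genes and were chosen after their values were seen. In 132 of the 146 all perisynaptic libraries lay above all extrasynaptic ones, against 2.78% of all genes tested, and in 6 of the 7 lower genes the reverse held, against 1.29%. Errors given with log2 differences are approximate standard errors, the size of the log2 difference divided by the square root of the test's F statistic. Replicates are separate animals.

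**Figure D1:**
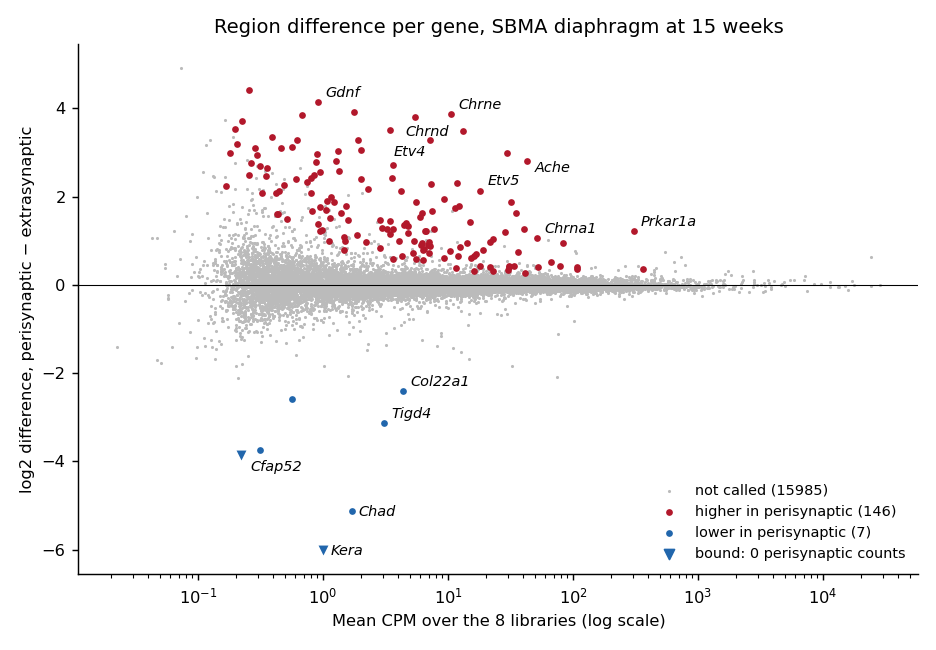
Log2 difference between perisynaptic and extrasynaptic pieces (vertical) against the mean CPM of the 8 libraries (horizontal, log scale) for the 16138 genes tested. Red points are the 146 genes called higher and blue the 7 called lower, and triangles mark the bound of Kera and Cfap52, which had 0 perisynaptic counts.

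The calls rested more on replicate 3 than on the other animals. The median within-animal difference of the 146 higher genes was 1.94 in replicate 3, against 1.21, 1.03 and 1.35 in replicates 1, 2 and 4. Replicate 3 had the largest difference of the 4 animals in 113 of the 146 genes, and replicates 1 and 2 had the smallest in 59 and 62. Without replicate 3 only 76 genes were called (70 higher and 6 lower), of which 75 were among the 153. Leaving out replicate 1, 2 or 4 left 122, 134 and 126 calls. With only the 8 libraries in the fit, which leaves fewer degrees of freedom for the spread, 98 genes were called.

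**Figure D2:**
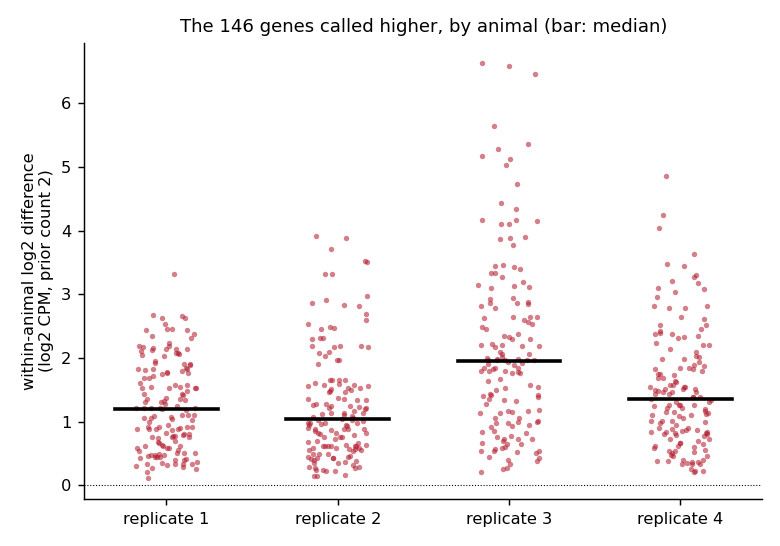
Within-animal log2 difference (perisynaptic minus extrasynaptic, log2 CPM with a prior count of 2) of each of the 146 genes called higher, by animal, with the median as a bar. Medians are 1.21, 1.03, 1.94 and 1.35 in replicates 1 to 4, and all points lie above 0.

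The subunit genes of the acetylcholine receptor separated into 3 that rose at the synapse, Chrne, Chrnd and Chrna1, and 2 that did not pass the test, Chrnb1 and Chrng. The list of receptor and clustering genes had 10 members tested, of which 3 were called higher and 0 lower, with a median of 0.27. Chrne, on chromosome 11 (70614883 to 70619216, minus strand, mm10), encodes the epsilon subunit of the adult receptor. It was at 20.3, 17.1, 23.0 and 18.1 CPM in perisynaptic replicates 1 to 4 and at 4.38, 1.08, 0.154 and 0.547 CPM in their extrasynaptic pieces. The regions did not overlap, and the extrasynaptic spread came mainly from replicate 1. The log2 difference was 3.87 ± 0.47 (adjusted p = 0.000172, edgeR), with 4.99 as the highest and 3.40 as the lowest value over the alternatives tried. Chrnd encodes the delta subunit and lies on chromosome 1 (87190607 to 87200070). Its levels were 26.0, 21.6, 29.2 and 20.5 CPM at the synapse against 4.73, 2.09, 0.73 and 1.57 CPM away from it, a difference of 3.49 ± 0.32 (adjusted p = 1.23e-05, edgeR).

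Chrna1, on chromosome 2 (73563215 to 73580338, minus strand), encodes the alpha subunit, of which each receptor holds a pair. Its perisynaptic levels of 67.3, 60.2, 94.2 and 56.8 CPM lay above the extrasynaptic levels of 36.6, 28.2, 42.5 and 26.1 CPM. The difference was smaller than for Chrne and Chrnd, at 1.06 ± 0.10 (adjusted p = 1.3e-05, edgeR), and the extrasynaptic level was far from 0. Chrnb1, which encodes the beta subunit, was at 46.2, 40.7, 61.7 and 47.9 against 44.4, 36.0, 42.8 and 38.7 CPM. Its regions overlapped and it was not called (0.27 ± 0.09, adjusted p = 0.267, edgeR). Per kilobase of exon, the mean extrasynaptic level was 16 CPM for Chrnb1, 7.61 for Chrna1, 0.912 for Chrne and 0.693 for Chrnd. At the synapse these levels were 19.4, 15.9, 11.6 and 7.39 CPM per kilobase, so the 4 adult subunit genes were closer to each other there than away from it. The fetal gamma subunit gene Chrng was near 0 in both regions (means of 0.122 and 0.0368 CPM) and was not called.

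Promoters of these genes are shown because the subunits differ in how far they are restricted to the synapse, and because ETS factors, several of which rose with them, are known to act on the N-box (CCGGAA). The sequences are those before the RefSeq start site on GRCm38.p6, 5′ to 3′ on the gene's strand, with bases that GENCODE places in the transcript left out. Capitals mark an N-box in Chrne (chr11:70619217-70619444, minus strand, first base at position -76 from the start) and the E-boxes in Chrna1 (chr2:73580339-73580588, minus strand, first bases at -92, -73 and -44). Chrne also holds an E-box, at -138, which is left in lower case. An E-box, CANNTG, is the core that myogenic factors such as myogenin recognise.
Chrne: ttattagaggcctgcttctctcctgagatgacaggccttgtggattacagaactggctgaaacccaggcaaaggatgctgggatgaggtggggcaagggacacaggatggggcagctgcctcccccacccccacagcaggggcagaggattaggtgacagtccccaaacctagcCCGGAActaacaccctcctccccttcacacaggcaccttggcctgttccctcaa
Chrna1: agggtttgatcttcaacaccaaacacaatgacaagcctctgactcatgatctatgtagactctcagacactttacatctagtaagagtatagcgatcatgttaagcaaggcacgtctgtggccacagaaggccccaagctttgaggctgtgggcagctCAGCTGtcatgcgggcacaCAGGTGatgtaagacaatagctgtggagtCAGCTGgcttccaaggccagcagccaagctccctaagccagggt

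Both motifs were searched on both strands in RefSeq windows of 300 bases, 250 before the start to 50 after it. The 21 genes searched were those of the receptor, cholinesterase and other synaptic nucleus lists, and 16 of them had a window. Of these 16 genes, 2 held an N-box in at least 1 window, Chrne and Prkar1a, against 16.7% of all 27025 genes with a window and 14.9% of the 32851 windows. An E-box was in 15 of the 16 genes, against 75% of all genes and 72.3% of windows. The N-box count is therefore near that of promoters at large, and neither match shows binding.

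Genes of the agrin pathway did not pass the test. Musk, the kinase that agrin activates, was at 55, 53.9, 61.9 and 63.8 CPM in perisynaptic pieces and at 57.0, 49.1, 46.2 and 59.5 CPM in extrasynaptic pieces (0.15 ± 0.14, adjusted p = 0.975, edgeR). Lrp4, the receptor for agrin, showed a small difference in which no perisynaptic library overlapped an extrasynaptic one, 60.7 to 69.4 against 50.7 to 57.4 CPM, and was not called (0.27 ± 0.09, adjusted p = 0.28, edgeR). The differences were -0.03 for Rapsn, which encodes rapsyn, 0.01 for the MuSK adaptor gene Dok7 and -0.01 for Agrn itself. Their mean levels in perisynaptic and extrasynaptic pieces were 39.9 and 40.6 CPM for Rapsn, 48.7 and 48.2 CPM for Dok7 and 38.9 and 39.0 CPM for Agrn.

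Ache, the acetylcholinesterase gene on chromosome 5 (137287519 to 137294466, plus strand), ends transmission by breaking down acetylcholine. It was at 71.7, 58.8, 105 and 66.5 CPM in perisynaptic replicates 1 to 4 and at 18.5, 9.07, 7.07 and 9.63 CPM in extrasynaptic ones. The lowest perisynaptic library was far above the highest extrasynaptic one, and the difference was 2.80 ± 0.24 (adjusted p = 7.35e-06, edgeR). Colq encodes the collagen tail that anchors the esterase in the synaptic basal lamina. It was at 52.5, 51.0, 51.3 and 44.0 CPM against 38, 38.5, 45.9 and 41.2 CPM and was not called (0.28 ± 0.12, adjusted p = 0.615, edgeR). Of the 4 genes of the cholinesterase list 1 was higher, and Bche (0.01) and the membrane anchor gene Prima1 (0.40) did not pass.

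**Figure D3:**
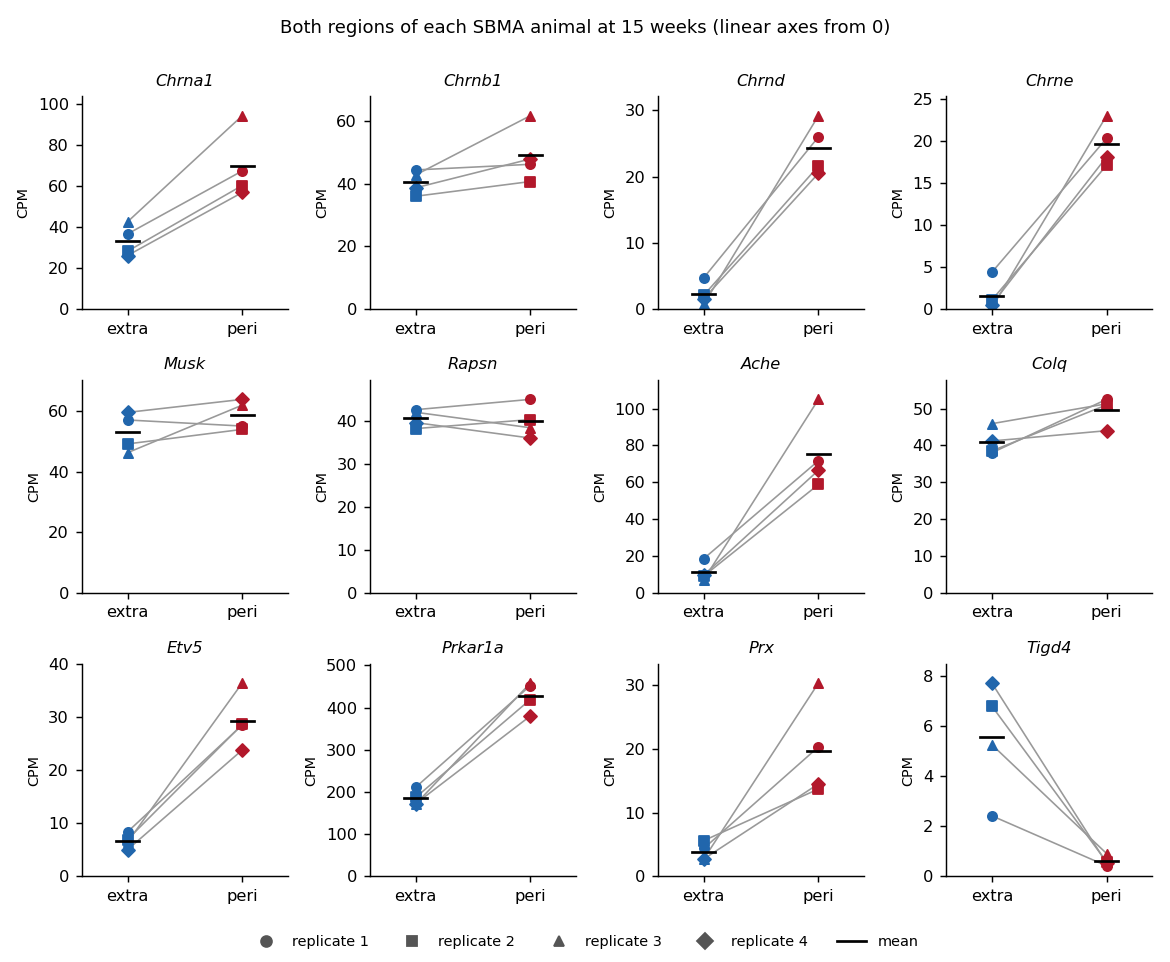
CPM of 12 genes in the extrasynaptic (blue) and perisynaptic (red) piece of each SBMA animal at 15 weeks, joined within animals, with symbols for replicates, means as bars and linear axes from 0. Chrnd, Chrne, Ache, Etv5, Prkar1a, Prx and Chrna1 are higher at the synapse in all 4 animals, Tigd4 is lower, and Rapsn and Musk overlap.

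Of 8 tested genes for ErbB receptors and ETS factors, 3 were called higher, all of them ETS factors of the same subfamily, and the list's median was 0.18. Etv5 had the smallest adjusted p of all genes tested. It was at 28.5, 28.6, 36.4 and 23.8 CPM in perisynaptic pieces and at 8.38, 6.95, 6.45 and 5.02 CPM in extrasynaptic pieces, a difference of 2.13 ± 0.11 (adjusted p = 1.53e-08, edgeR). Etv4 differed more, 12.3, 9.74, 18.4 and 11.7 against 1.92, 0.90, 1.15 and 1.30 CPM (3.29 ± 0.29, adjusted p = 7.76e-06). Neither gene's regions overlapped. Etv1 was low and rose less, from a mean of 2.04 to 3.66 CPM (0.83 ± 0.16, adjusted p = 0.0111, edgeR). Its call was lost without replicate 1 (adjusted p = 0.0635), without replicate 3 (adjusted p = 0.126) and without the animal block (adjusted p = 0.0515). The receptor genes Erbb3 (0.22, adjusted p = 0.372) and Erbb2 (-0.08, adjusted p = 0.976) were not called. Their ligand gene Nrg1 was too low to test, with 18 counts over the 4 perisynaptic and 21 over the 4 extrasynaptic libraries.

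Other genes known from synaptic nuclei were higher in 6 of 7 cases, with a median of 1.21. Prkar1a encodes a regulatory subunit of the cyclic AMP dependent kinase and was the most abundant of them. It was at 452, 419, 458 and 380 CPM at the synapse and at 211, 187, 171 and 172 CPM away from it, and no library of the regions overlapped (1.21 ± 0.07, adjusted p = 7.07e-08, edgeR). Ano4, of the anoctamin family of membrane proteins, was at 6.52, 4.91, 8.15 and 5.61 against 1.19, 0.252, 0.384 and 0.444 CPM (3.51 ± 0.30). Pdzrn4, a gene for a ubiquitin ligase with PDZ domains, differed by 3.06 ± 0.34, Phldb2, a cortical anchor of microtubules, by 1.04 ± 0.11, and Gramd1b, a sterol transporter gene, by 0.42 ± 0.07. All 4 perisynaptic levels of Phldb2 lay between 30.3 and 31.0 CPM, while the extrasynaptic levels were 12.2 to 16.6 CPM. The exception was Vav3, at a mean of 5.36 and 5.14 CPM.

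Ufsp1, which encodes a protease for the modifier UFM1, was at 19.6, 15.4, 20.7 and 14.9 CPM against 6.73, 4.97, 4.53 and 4.82 CPM (1.74 ± 0.17, adjusted p = 1.3e-05, edgeR). It starts 163 bases beyond the end of Ache on the same strand, and whether reads that run past Ache were counted in it was not tested. Among all 153 called genes, 25 overlap another tested gene in the annotation, 20 of them on the opposite strand.

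The largest rise among named genes was that of Gdnf, which encodes a growth factor for motor neurons made by muscle and Schwann cells. It was at 1.03, 1.65, 2.55 and 1.72 CPM in perisynaptic pieces and at 0.192, 0.072, 0 and 0.102 CPM in extrasynaptic pieces. With 171 counts against 10 over each set of 4 libraries, the ratio of pooled levels was 19.4, and the fitted difference was 4.14 ± 0.45 (adjusted p = 4.52e-05, edgeR). The other 11 tested genes of the trophic factor list did not pass, and that list's median was -0.02. The receptor through which Gdnf signals has its binding subunit encoded by Gfra1, which rose from a mean of 7.31 to 11.2 CPM (0.61 ± 0.14, adjusted p = 0.0373, edgeR); this gene lies outside the rule for named genes and was chosen after its value was seen.

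Of 13 components of the synaptic basal lamina, 2 were called higher and the median was 0.08. Col25a1 encodes a transmembrane collagen needed for motor innervation and was at 2.49, 2.63, 2.40 and 2.63 CPM against 0.961, 1.62, 0.884 and 1.26 CPM (1.12 ± 0.17, adjusted p = 0.00198, edgeR). Col4a3, a chain of the collagen IV of mature synaptic lamina, was at 8.26, 7.64, 12.7 and 8.40 against 6.54, 3.67, 5.65 and 4.13 CPM (0.89 ± 0.14, adjusted p = 0.00223). In both genes the perisynaptic libraries lay above every extrasynaptic one. The laminin and nidogen genes of the list were not called. Col4a4, another collagen IV gene that lies 72 bases from Col4a3 on the opposite strand, was not called either (0.17, mean of 11.2 CPM).

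Of 17 genes for the postsynaptic cytoskeleton and membrane, 2 were higher and the median was 0.02. Nes, the intermediate filament nestin, which is kept at adult junctions, was at 108, 98.7, 121 and 108 CPM in perisynaptic pieces and at 67.8, 64.0, 37.8 and 59.4 CPM in extrasynaptic pieces (0.95 ± 0.18, adjusted p = 0.00819, edgeR). Without replicate 3, the animal with the lowest extrasynaptic level, it was not called (0.72, adjusted p = 0.10). Ncam1, an adhesion molecule of synapses, Schwann cells and denervated fibres, rose by 0.66 ± 0.13 (adjusted p = 0.0154) from a mean of 12.4 to 20.1 CPM. It lost its call without replicate 1 (adjusted p = 0.0547), without replicate 3 (adjusted p = 0.217) and without the animal block (adjusted p = 0.214).

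Of 16 genes of the response to denervation, 2 were called higher and the median was 0. Myog, the myogenic factor myogenin, was at a mean of 6.63 CPM at the synapse and 4.45 CPM away from it (0.59 ± 0.13, adjusted p = 0.0448). Leaving out any of the 4 animals ended its call (adjusted p of 0.0843 to 0.222), as did total-count scaling (adjusted p = 0.0699). It was also the only call among 12 myogenic and satellite cell genes. Myh8, the neonatal myosin gene, went the other way, 4.78 to 6.25 CPM in perisynaptic and 7.31 to 10.3 CPM in extrasynaptic pieces, without overlap and without a call (-0.61 ± 0.18, adjusted p = 0.212).

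Of 12 markers of myelinating Schwann cells, 11 were called higher and none lower, with a median of 2.19. The summed level of these markers was 172 to 303 CPM in perisynaptic and 76.7 to 120 CPM in extrasynaptic libraries, and no marker was at 0 in all libraries of a region. Prx, which encodes the myelin scaffold periaxin, was at 20.3, 13.7, 30.3 and 14.5 CPM against 4.38, 5.61, 2.73 and 2.73 CPM (2.31 ± 0.34, adjusted p = 0.00131). The tight junction gene Cldn19 of myelin (3.29) and Ncmap (3.03), a membrane protein gene of non-compact myelin, had the largest differences of the list. Mbp, myelin basic protein, differed by 1.19 and Drp2, a partner of periaxin, by 0.95. Pmp22, also made by other cells, was the member that did not pass (0.34, adjusted p = 0.501).

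Of 11 tested markers of non-myelinating and terminal Schwann cells, 4 were called higher, with a median of 0.22. Sox10, the transcription factor that specifies Schwann cells, was at 4.27, 2.90, 4.04 and 2.37 CPM in perisynaptic pieces and at 0.884, 0.684, 0.384 and 0.581 CPM in extrasynaptic pieces (2.40 ± 0.31, adjusted p = 0.000257, edgeR). Cdh19, a cadherin of the Schwann lineage, rose by 1.79 ± 0.23. S100b rose by 1.63 ± 0.35 but was not called without replicate 1 (adjusted p = 0.149) or replicate 3 (adjusted p = 0.201). The fourth was Ncam1. Ngfr, which marks immature and injured Schwann cells, was at a mean of 0.419 CPM at the synapse and 0.486 CPM away from it and did not pass. Egr2, the factor that drives myelination and also an immediate early gene, differed by 1.51 ± 0.34 (adjusted p = 0.0448), and no call remained when any 1 animal was left out (adjusted p of 0.0818 to 0.382). It was the only call among 26 immediate early genes.

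Of 8 perineurial and endoneurial markers 2 were higher, with a median of 0.96. Cldn1, a tight junction gene of the perineurium, was at 6.05, 4.2, 10.3 and 3.74 CPM against 0.884, 2.34, 0.307 and 0.854 CPM (2.43 ± 0.41, adjusted p = 0.00375, edgeR), and was not called in the fit of the 8 libraries (adjusted p = 0.114). Moxd1, an enzyme of the monooxygenase family, rose by 1.76 ± 0.38 (adjusted p = 0.0259) and lost its call without replicate 3 (adjusted p = 0.237) or replicate 4 (adjusted p = 0.162). The summed level of this list was 173 to 217 CPM in perisynaptic and 147 to 168 CPM in extrasynaptic libraries. Motor neuron cell bodies lie in the spinal cord, and only 5 of 12 axon and neuron markers could be tested, with 0 called. The summed level of the list was 12.8 to 18.9 CPM in perisynaptic and 15.8 to 19.9 CPM in extrasynaptic libraries, mostly from Stmn2, Syp and Uchl1, which were tested. Those too low to test included the neurofilament gene Nefl, the choline transporter gene Slc5a7 and the vesicle fusion gene Snap25. Over each set of 4 libraries, Nefl had 3 and 1 counts, Slc5a7 1 and 1 and Snap25 1 and 0. The part of Schwann and sheath cells in the other calls was not tested, and Gdnf and Ncam1 are known from both muscle and Schwann cells.

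Among the 12 largest rises above 2 CPM were also Cabp7, Igfbp2 and Sfrp5. Cabp7, a calcium binding protein gene of the calmodulin family, was at 8.31, 13.2, 11.3 and 7.90 CPM in perisynaptic pieces and at 1.69, 0.936, 0.0384 and 0.342 CPM in extrasynaptic pieces (3.81 ± 0.37, adjusted p = 1.52e-05, edgeR). Igfbp2 encodes a binding protein for insulin-like growth factors and was at 5.35, 7.64, 6.29 and 5.95 against 1.15, 1.76, 0.499 and 0.547 CPM (2.72 ± 0.32, adjusted p = 0.000112). Neither overlapped between regions. Sfrp5, a secreted inhibitor of Wnt signals, was at 13.4, 8.98, 18 and 7.86 against 3.15, 5.40, 0.384 and 1.43 CPM (2.29 ± 0.47, adjusted p = 0.019). It was not called without replicate 1 (adjusted p = 0.0693), 3 (adjusted p = 0.109) or 4 (adjusted p = 0.0778).

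The 7 genes called lower at the synapse included genes of tendon and of the myotendinous junction, the site at which a fibre meets tendon. Of 12 tenocyte markers 2 were lower and of 8 markers of myotendinous nuclei 2 were lower, with list medians of -0.52 and -0.02. Tigd4, a gene of transposon origin that marks myotendinous nuclei, was at 0.422, 0.581, 0.915 and 0.534 CPM in perisynaptic pieces and at 2.42, 6.80, 5.26 and 7.72 CPM in extrasynaptic pieces. Its regions did not overlap, and it fell by 3.14 on the log2 scale (SE 0.30, adjusted p = 1.52e-05, edgeR). Col22a1, the collagen of the myotendinous junction, was at 0.986, 0.625, 2.25 and 1.6 CPM against 3.31, 8.31, 7.95 and 9.77 CPM (-2.41 ± 0.46, adjusted p = 0.0104). Its call was lost without replicate 2 (adjusted p = 0.083), without replicate 4 (adjusted p = 0.0724) and without the animal block (adjusted p = 0.158).

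Chad encodes chondroadherin, a matrix protein of cartilage and tendon. It was at 0.0469, 0, 0.152 and 0.153 CPM against 0.654, 3.53, 4.38 and 4.58 CPM, with 9 counts over the perisynaptic and 363 over the extrasynaptic libraries (-5.12 ± 0.66, adjusted p = 0.000411, edgeR). Kera, which encodes the proteoglycan keratocan, had 0 counts in all 4 perisynaptic libraries. Its extrasynaptic levels were 0.0769, 1.73, 3.84 and 2.36 CPM, with 219 counts over the 4 libraries. Against a floor of 3 counts over the perisynaptic libraries it was at least 64.3-fold lower at the synapse. It was called by edgeR (adjusted p = 0.00239) and not by DESeq2 (adjusted p = 1) or without the animal block (adjusted p = 0.363). Tnmd, which encodes the tendon protein tenomodulin, was at 1.97 to 3.22 CPM in perisynaptic and 3.67 to 6.22 CPM in extrasynaptic pieces and was not called (-0.97 ± 0.40, adjusted p = 0.574). The summed tenocyte markers were at 165 to 324 CPM in perisynaptic and 251 to 316 CPM in extrasynaptic libraries, which overlap. The part that tissue from the fibre ends has in these falls was not tested.

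The other 3 lower genes fall outside the rule for named genes and are named because they are few. Pacsin1, which encodes a protein of endocytosis, was at 0.0893 to 0.229 CPM in perisynaptic and 0.192 to 1.42 CPM in extrasynaptic pieces, with extrasynaptic replicate 1 inside the perisynaptic range (-2.59 ± 0.59, adjusted p = 0.0448, edgeR). Ptx4, a pentraxin gene, had 4 counts against 65 (-3.73 ± 0.62, adjusted p = 0.00361). Cfap52, a gene of ciliary axonemes, had 0 counts in perisynaptic and 49 in extrasynaptic libraries and was at least 14.4-fold lower. All 3 had means under 1 CPM in both regions.

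None of the listed contractile and metabolic genes was called. These were 16 fast fibre, 28 other sarcomere, 18 excitation-contraction coupling, 16 glycolysis, 20 fatty acid and 84 respiratory chain genes. Over all genes tested 0.948% were called, and at that share lists of these sizes would hold few calls or none. The 12 slow fibre genes were all higher at the synapse in the fitted value, with a median of 0.36, and none was called (smallest adjusted p = 0.0688, edgeR). Tnnt1, slow troponin T, was at 730, 725, 873 and 677 CPM against 374, 506, 660 and 606 CPM (0.51 ± 0.15, adjusted p = 0.196). Tnnt1, Tnni1, Myl2 and Myh7 were lowest in extrasynaptic replicate 1 among the 8 libraries, with Myh7 at 1090 CPM there and between 1510 and 1850 CPM in the other 3. The 81 tested ribosomal protein genes had a median of 0.16 with 71 of them above 0 and none called. No gene was called among 18 clock, 23 unfolded protein response and 15 fibrillar and basement membrane collagen genes. Called collagen genes outside that collagen list include Col25a1, Col4a3 and Col22a1, and also Col20a1 (log2 1.54) and Col26a1 (1.46). Col20a1 and Col26a1 lie outside the rule for named genes and were chosen after their values were seen. Markers of endothelium, smooth muscle, fibroadipogenic progenitors, macrophages, lymphocytes, mast cells and erythroid cells also held no call. These lists too are short against the share called over all genes.

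Fat and mesothelium varied between pieces without a call. The 10 tested adipocyte markers were all lower in the fitted value, with a median of -0.88 and no call. Their summed level was 357 to 917 CPM in perisynaptic and 513 to 919 CPM in extrasynaptic libraries. Most of the lowest sum, that of perisynaptic replicate 1, came from list members other than Adipoq, Plin1, Cidec and Cfd. These were at 0.469, 0.282, 0.563 and 4.18 CPM in that library. Adipoq, the adiponectin gene of fat cells, was at 0.469, 5.94, 0.61 and 24.6 CPM in perisynaptic replicates 1 to 4 and at 6.34, 17.2, 22.4 and 9.36 CPM in extrasynaptic ones, so that replicate 4 went against the other 3 (-1.44 ± 0.89, adjusted p = 0.916, edgeR).

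**Figure D4:**
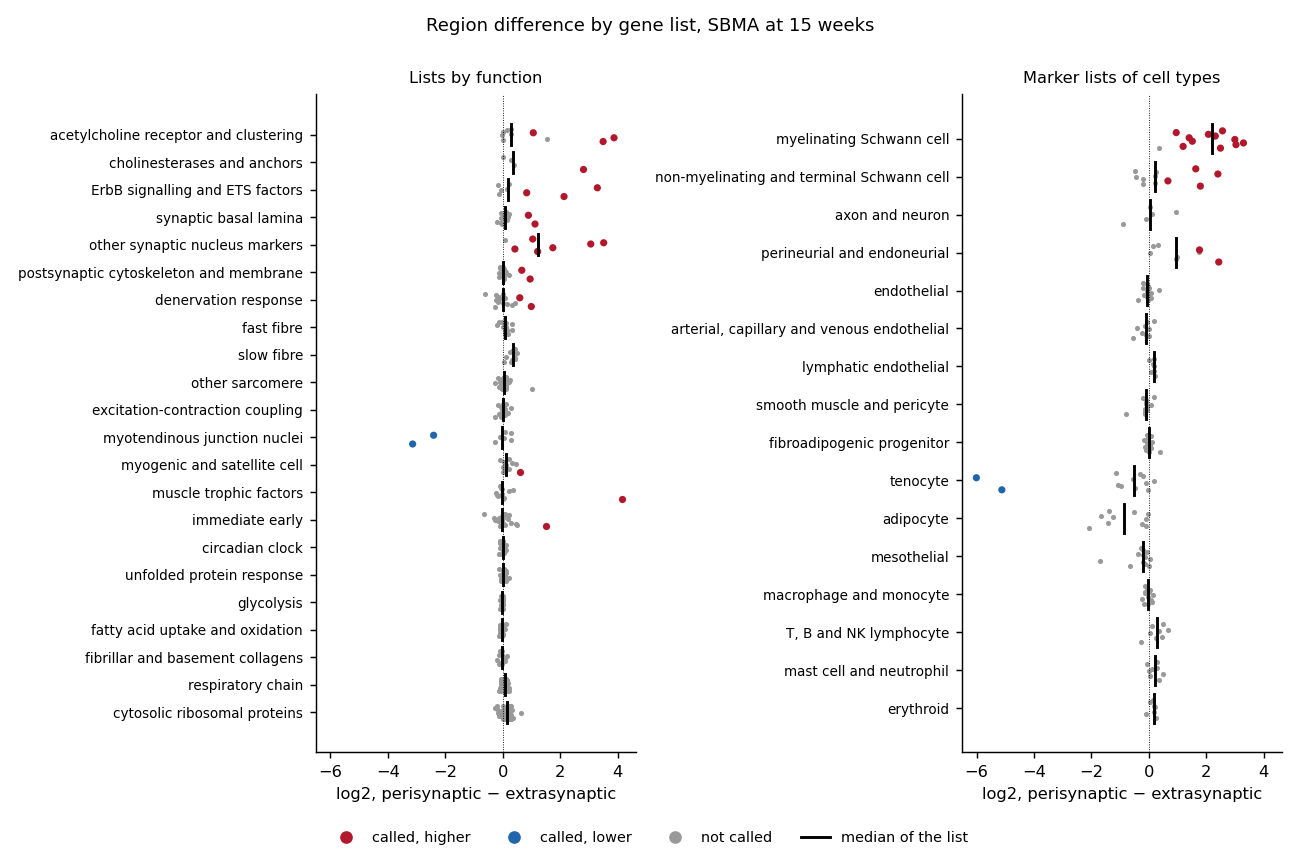
Log2 difference between perisynaptic and extrasynaptic pieces for each tested member of 38 gene lists, with called genes in red (higher) or blue (lower) and the median of a list as a bar; Kera is at its bound. Myelinating Schwann cell markers have a median of 2.19 and other synaptic nucleus markers 1.21, while most lists have medians near 0.

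The same regions were compared in the 3 control animals of 15 weeks, which share no library with the SBMA animals, to see which differences go with genotype. In controls 188 genes were called (1.16%), 151 higher and 37 lower. Of the 146 genes higher in SBMA, 107 were also called higher in controls, that is 73.3% of the SBMA and 70.9% of the control calls, and all 146 had the same sign. Of the 7 lower genes 5 were called lower in controls (13.5% of 37). The medians of the 146 genes were 1.49 in SBMA and 1.73 in controls, and these genes were selected in SBMA. No gene passed the test of the difference itself, SBMA minus control region difference (0 called by edgeR, 421 genes at an unadjusted p under 0.05, and 5 called by DESeq2).

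Chrna1 had the smallest adjusted p of that test. Within animals its log2 difference was 0.88, 1.09, 1.15 and 1.12 in SBMA replicates 1 to 4 and 2.37, 2.00 and 1.86 in control replicates 1 to 3, so that the genotypes did not overlap. The difference between them was -1.02 ± 0.16 (adjusted p = 0.117, edgeR), and DESeq2 and the fit of only the 14 libraries of 15 weeks called it. Control pieces were at 53.7, 47.8 and 52.2 CPM at the synapse and at 10.3, 11.9 and 14.4 CPM away from it. Every SBMA level lay above every control level of the same region, by the larger margin in the extrasynaptic pieces; SBMA minus control within a region was not tested here. Prkar1a differed within animals by 1.1, 1.17, 1.42 and 1.15 in SBMA and by 1.64, 1.63 and 1.94 in controls (-0.53 ± 0.11, adjusted p = 0.453, edgeR), a difference that DESeq2 called. Here the perisynaptic level was 495 to 597 CPM in controls and 380 to 458 CPM in SBMA, while extrasynaptic levels were 155 to 161 and 171 to 211 CPM.

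Colq was called in controls (1.02, adjusted p = 0.000787, edgeR) and not in SBMA (0.28), but the difference of -0.74 ± 0.19 did not pass (adjusted p = 0.778). Extrasynaptic Colq was at 11.1, 21.4 and 25.0 CPM in controls against 38 to 45.9 CPM in SBMA. Lrp4 and Chrnb1 were likewise called in controls (0.51 and 0.45, adjusted p = 0.0161 and 0.0351), and their differences between genotypes were -0.24 and -0.18 (adjusted p = 1 in both). For Chrne the region difference was 6.05 in controls, with extrasynaptic levels of 0.324 to 0.481 CPM, and the genotype difference of -2.18 ± 1.01 did not pass (adjusted p = 1). Igfbp2 was at 13.5 to 20.8 CPM in perisynaptic controls against 5.35 to 7.64 CPM in SBMA, and its region difference of 4.81 in controls and 2.72 in SBMA gave a difference that did not pass the test (adjusted p = 0.91).

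SBMA animals of 26 weeks gave 334 called genes (2.07%), 267 higher and 67 lower. Of the 146 genes called higher at 15 weeks 118 were called at 26 weeks (80.8% of 146 and 44.2% of 267), and 145 had the same sign. Of the 7 lower genes 4 were called again. No gene passed the test of 26 minus 15 weeks (0 called by edgeR, 663 at an unadjusted p under 0.05, 0 called by DESeq2, smallest adjusted p 0.659). Over the 3 groups, 95 higher and 4 lower genes were called in all, and 16 higher and 2 lower genes were called at 15 weeks in SBMA and in neither of the others. Within-animal differences of Chrna1 were 0.57 to 0.81 at 26 weeks, below those at 15 weeks, with extrasynaptic levels of 57.0 to 71.4 CPM. The difference between ages was -0.36 ± 0.14 (adjusted p = 0.864). Musk was -0.41 at 26 weeks and 0.15 at 15 weeks, neither of them called.

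**Figure D5:**
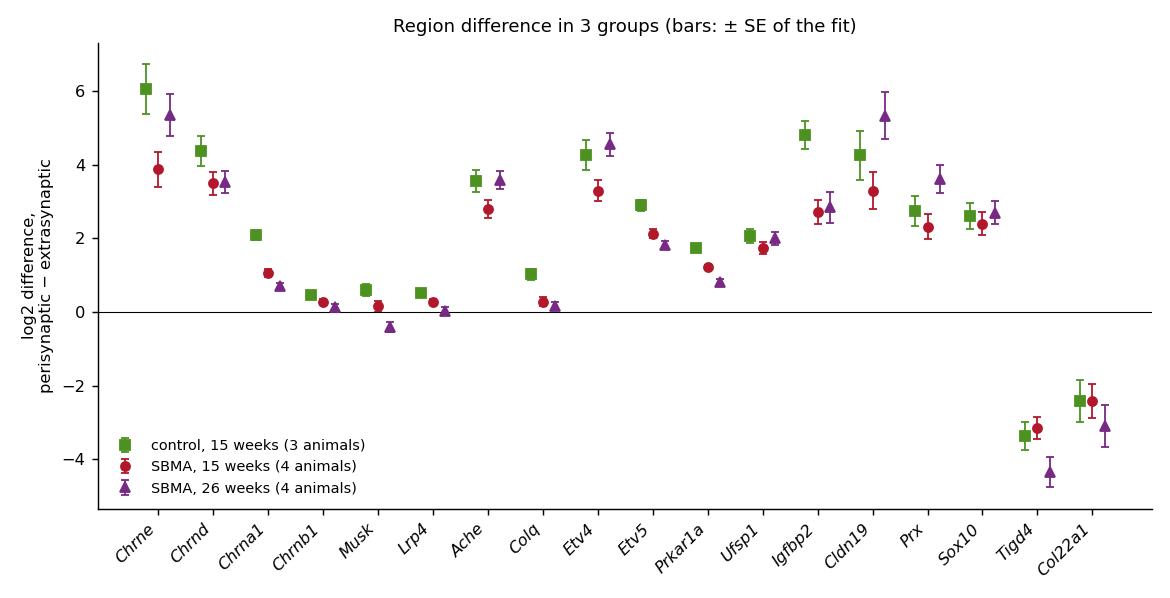
Fitted log2 region difference (perisynaptic minus extrasynaptic) with its standard error for 18 genes in control animals of 15 weeks (green squares, 3 animals), SBMA of 15 weeks (red circles, 4 animals) and SBMA of 26 weeks (purple triangles, 4 animals). Chrna1 is at 2.08 in controls, 1.06 in SBMA at 15 weeks and 0.70 at 26 weeks. No gene passed edgeR's test of SBMA minus control at 15 weeks or of 26 minus 15 weeks in SBMA. DESeq2 called Chrna1 and Prkar1a for SBMA minus control. SBMA of 26 weeks was not tested against controls.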

How the data were processed

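RNA of the perisynaptic and extrasynaptic diaphragm of male mice was extracted with a miRNeasy kit and made into libraries with a stranded KAPA mRNA kit, per the labels' protocols. The deposited values are unnormalised read counts from featureCounts on mm10, per the submitters' processing notes, while the sources used here name no aligner, annotation release or strand setting. Of 33076 genes, 33064 matched GENCODE vM21 and 12 did not, which held 0.00171% of the counts. All 30 libraries were fitted with edgeR 4.0.16 in R 4.3.3 (TMM factors, filterByExpr with a minimum count of 10 and total of 15) with a term per animal and a region effect per genotype and age, which left 11 residual degrees of freedom. The quasi-likelihood test was 2-sided, and a gene was called where its p, adjusted by Benjamini and Hochberg over 16138 genes, was under 0.05. Levels are CPM on TMM-scaled totals. Log2 CPM used a prior count of 2. The pairing of the regions comes from the animal in each library name, and deviations from group means correlated within animals at 0.09 to 0.339 (mean 0.198), and 3 of 4 animals matched their own other region best. The fit was tested on simulated data of the same design with known changes. Replicate libraries differed beyond sampling noise, so none was counted as a duplicate. Reads carry no molecular identifiers. Errors are those of the fit, from the spread that remains over all 30 libraries after the animal and region terms.

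The members, gene lists, tests and alternatives were chosen with earlier results of these data known. By the naming rule the text gives the 12 called genes above 2 CPM that rose most, those that fell most, up to 4 members of each list by smallest p, and a fixed set. Alternatives were DESeq2 1.42.0, RLE factors, total-count scaling, no filter, no animal block, only the libraries compared, and each animal left out. Promoter sequences are RefSeq's on GRCm38.p6. Some genes of the lists are not reported here.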

Additional observations from a re-analysis of the deposited data

Results flagged for a closer look

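Within-animal differences of 171 named genes were screened in the 4 SBMA animals for a single value far from the other 3, by Dixon's criterion, which chance meets in about 1 of 20 groups. It was met by 8 genes, which is near the number that chance would give. The value was that of replicate 1 in 3 genes, of replicate 2 in 1, and of replicates 3 and 4 in 2 each. The called gene among them was Ufsp1, with 2.17 in replicate 3 against 1.53, 1.61 and 1.62 in the other animals, so that all 4 animals were higher at the synapse. Slc2a1, a glucose transporter gene of perineurium and other barriers, was at 0.60 in replicate 3 and at 0.20 to 0.24 in the others. In replicate 1 the mesothelial gene Msln was at -1.57 against 0.22 to 0.49, the collagen gene Col14a1 at -1.02 against -0.01 to 0.18, and Vegfa, an angiogenic growth factor gene, at 0.27 against -0.23 to -0.20. In replicate 4 Uchl1, a neuronal hydrolase gene, was at -1.81 against -0.68 to -0.47, and the calcium channel gene Orai1 at 0.02 against 0.35 to 0.36. Trib3, a stress-induced pseudokinase gene, was at -0.09 in replicate 2 and at 0.25 to 0.31 in the others.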

How the results depend on the processing

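For the region difference of SBMA at 15 weeks, 171 genes were called by DESeq2, 153 with RLE factors, 143 with total-count scaling and 121 without the animal (replicate) block, of which 137, 152, 142 and 111 were among the 153. Without the filter on low counts 425 were called (313 higher and 112 lower), 420 of them genes that were also tested with the filter; the cause was not tested. With only the 8 libraries 98 were called. With 1 animal left out, 76 to 134 were called, fewest without replicate 3. Of 36 named called genes, none reversed under any of these; 29 were called without the block, where Col22a1, Egr2, Etv1, Kera, Myog, Ncam1 and S100b were lost. For SBMA minus control, with 0 calls, DESeq2 called 5 (Chrna1, Prkar1a, mt-Nd6, mt-Tq and Gm37194), the 14 libraries of 15 weeks 2 (Chrna1 and Gm37194) and the unfiltered fit 154; with 1 animal left out it was 0 to 6. The 6 without SBMA replicate 2 were Rn7sk, Lars2, Mir6236, Gm15564, Gm23935 and Gm42418. Total-count scaling moved the median of this difference over all genes to -0.114. For 26 minus 15 weeks, with 0 calls, the unfiltered fit called 146, and leaving out 1 animal called 0 in each case. Without the block both tests of a difference called 0. The number of animals, 4 pairs, limits which small differences could be called.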

Other observations

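Called genes that no list held, chosen after their values were seen, included enzymes of the MAP kinase cascade and their phosphatases. Rps6ka1, a ribosomal S6 kinase that ERK activates, was at 19.1, 20.9, 18.9 and 16.8 CPM in perisynaptic pieces and at 6.96, 5.29, 4.72 and 5.16 CPM in extrasynaptic pieces (1.78 ± 0.13, adjusted p = 6.86e-07, edgeR). Map2k1, which encodes the kinase MEK1, differed by 0.52 ± 0.06, and every perisynaptic library (73.4 to 88.1 CPM) lay above every extrasynaptic one (51.7 to 59.6 CPM). The ERK phosphatase genes Dusp6 (0.97 ± 0.14) and Dusp4 (0.80 ± 0.14) were also higher, at 25.0 to 33.0 against 9.60 to 16.9 CPM and at 6.97 to 8.70 against 3.57 to 5.46 CPM. Fzd10, a Wnt receptor gene, differed by 1.87 ± 0.18 (7.73 to 11 against 1.69 to 3.65 CPM).

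Some ion channel genes and other genes outside the lists were also called, and the cells that their RNA came from were not tested. Kcna1 and Kcna2, potassium channels of the juxtaparanodal axon, were at 3.30 to 5.03 and 3.30 to 6.78 CPM in perisynaptic pieces and at 1.23 to 1.69 and 1.65 to 2.54 CPM in extrasynaptic pieces (1.48 ± 0.24 and 1.27 ± 0.21). Hcn4, a pacemaker channel gene, was at 3.39 to 3.94 CPM at the synapse in all 4 animals, while the extrasynaptic levels spread from 0.115 CPM in replicate 3 to 2.23 CPM in replicate 2 (2.18 ± 0.45, adjusted p = 0.0218, edgeR). Tnnt2, the cardiac troponin T gene that immature and denervated fibres express, was at 8.96 to 16.9 against 2.73 to 4.89 CPM (1.67 ± 0.25). B4galnt3, which encodes a glycosyltransferase, was at 2.68, 3.30, 3.92 and 3.47 CPM at the synapse and at 0.538, 0.216, 0 and 0.137 CPM away from it (3.91 ± 0.45, adjusted p = 8.33e-05, edgeR).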
